A study of Mus musculus with 6 samples.

Results

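Intermediate filaments are the tissue-typed part of the cytoskeleton, and 10 genes that encode them were followed through 6 arrays: Krt7, Krt8, Krt18, Krt19, Krt20, Vim, Des, Gfap, Nefl and Nefm. A probe set was taken where its symbol in the platform annotation matched one of these names, and each of the 10 had 1 probe set among 19505 genes. RNA labelled as colon crypt RNA of C57BL/6J mice was measured on 3 single-colour arrays of mice that received MBELN, exosome-like nanoparticles from mulberry bark, by gavage daily for 7 days, and on 3 arrays titled PBS, labelled as control mice. The labels give no sex or age and do not say what the control mice were gavaged with. Whether the arrays come from different animals is also not in the labels, so a p-value here reflects array-to-array spread that may be technical in part. Arrays of the same group also differed in tissue markers, as given below. Each p-value, SE and SD takes in that difference and is not a measure of replicate noise alone. Values are the deposited ones, read as log2, and with 3 arrays a group the number of arrays limits every estimate.

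Filament proteins share a coiled-coil rod and assemble in pairs, but their genes are switched on by cell type. Keratins are obligate partners of a type I and a type II chain and fill epithelial cells. The type III proteins vimentin, desmin and glial fibrillary acidic protein belong to mesenchymal cells, muscle and astrocytes, and the type IV neurofilament proteins belong to axons. In the gut, the simple keratins mark the crypt and villus or surface epithelium, desmin the muscle coats, and vimentin the connective tissue between the crypts.

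The arrays did not all carry the markers of their label, and MBELN 2 and PBS 2 stood apart from the other arrays of their groups. Over 10 heart muscle genes the median was 18.73, 3.53 and 18.98 in MBELN 1, 2 and 3, against 4.01 to 4.04 in the PBS arrays. Over 10 neuronal genes it was 3.80, 15.84 and 3.63 in the same order, against 4.30 to 4.57 in PBS. The median of 10 gut epithelial genes was 3.60 to 5.62 in the MBELN arrays and 16.38 to 17.64 in the PBS arrays. Within PBS, 9 colon epithelial genes had a median of 16.13 in PBS 2, 7.43 in PBS 1 and 6.99 in PBS 3, and 10 small intestinal genes had 4.003 in PBS 2, 18.80 in PBS 1 and 18.86 in PBS 3. In MBELN 1, 2 and 3 the small intestinal median was 8.37, 3.48 and 7.39. Of that list, Fabp6 read 3.04, 3.53 and 4.85 in MBELN, against 19.85, 4.76 and 19.85 in PBS. Fabp2 read 13.14, 2.60 and 11.22 in MBELN, against 19.93, 7.56 and 19.93 in PBS. Apoa4, the list's highest gene in MBELN 1 and 3, read 15.87, 3.39 and 13.80 in MBELN, against 17.12, 5.28 and 15.115 in PBS. Apoa4 was named after its values were seen. Every MBELN value below comes from an array in which the gut epithelial median was low. Differences of the 10 genes are given with and without MBELN 2 or both MBELN 2 and PBS 2. Those of other genes are given so where the call changes.

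The set of filament genes above the dim level was the same in MBELN 1 and the 3 PBS arrays and differed in MBELN 2 and MBELN 3. A gene is called above the dim level where its value exceeded that of 95% of the 1414 probe sets for odorant and vomeronasal receptors on the same array, a level of 4.10 to 4.44 in MBELN and 3.99 to 4.33 in PBS. In MBELN 2, 4 of the 10 genes were above it: Vim, Gfap, Nefl and Nefm, and all 5 keratins and Des were not. MBELN 1 had 7 genes above the level, the 5 keratins, Vim and Des, and MBELN 3 had 6, the same ones without Krt18. The 3 PBS arrays each had 7, the 5 keratins, Vim and Des. Vim was the single gene of the 10 above the level on all 6 arrays.

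**Figure D1:**
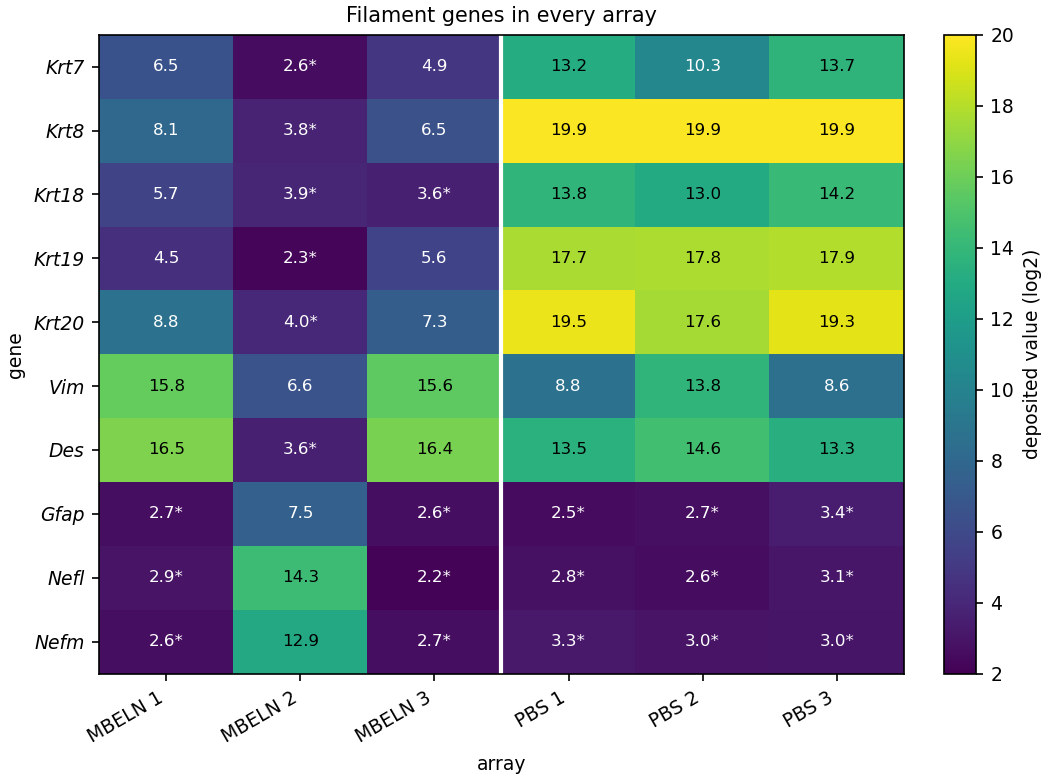
Deposited log2 value of the 10 filament genes (rows) in the 3 MBELN and 3 PBS arrays (columns), with an asterisk where a value was not above the dim level of its array. Rows are to be read across arrays, since levels of different probe sets do not compare. Keratins are bright in the PBS columns and the neurofilament genes in MBELN 2. Des is bright in every column but MBELN 2, and Vim in MBELN 1, MBELN 3 and PBS 2, both brightest in MBELN 1 and MBELN 3.

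Krt8 and Krt18 encode the type II and type I chains that form the main keratin pair of simple epithelia. They lie next to each other on chromosome 15 with 0 protein-coding genes between them in the RefSeq annotation. Promoter windows from 250 bases before to 50 after the gene start, as RefSeq gives them on GRCm38.p6, were held for 7 of the 10 genes, and those of this neighbouring pair are shown because both genes fell together. The Krt8 window is chr15:102004293-102004592 on the minus strand and the Krt18 window is chr15:102027966-102028265 on the plus strand. Capitals mark the letters TATAAA, as in a TATA box, and CAGCTG, as in an E-box, on either strand.
Krt8 promoter: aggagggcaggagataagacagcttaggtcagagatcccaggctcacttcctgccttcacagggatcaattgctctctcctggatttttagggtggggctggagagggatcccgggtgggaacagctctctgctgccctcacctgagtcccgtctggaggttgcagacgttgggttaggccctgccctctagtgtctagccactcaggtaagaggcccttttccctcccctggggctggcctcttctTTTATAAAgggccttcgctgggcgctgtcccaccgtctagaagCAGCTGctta
Krt18 promoter: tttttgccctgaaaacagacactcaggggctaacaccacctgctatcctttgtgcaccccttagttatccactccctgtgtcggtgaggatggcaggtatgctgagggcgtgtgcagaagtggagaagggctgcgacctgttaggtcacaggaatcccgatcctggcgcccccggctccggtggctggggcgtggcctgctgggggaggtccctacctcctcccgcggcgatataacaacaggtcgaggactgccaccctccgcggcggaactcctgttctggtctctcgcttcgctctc
Krt8 held TATAAA on the plus strand from position -1 and, overlapping it, on the minus strand from -3. These letters lie over the annotated start and are a match of letters only. Krt8 also held CAGCTG from position 40 after the start. Krt18 held neither. Over 32851 windows of this length, 13.6% held TATAAA and 16.3% held CAGCTG on either strand.

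Krt8 read 8.05, 3.82 and 6.48 in MBELN 1, 2 and 3, against 19.89, 19.87 and 19.89 in PBS 1, 2 and 3. The groups were 11.82 log2 units apart at their nearest, and the MBELN 2 value was not above the dim level. In all 3 PBS arrays Krt8 lay 0.0448 below the highest value of the array, so its small spread in PBS follows the top of the scale, and the fall of 13.76 log2 units (SE 1.07, 95% confidence interval -16.41 to -11.12, limma, adjusted p = 0.00272) may be understated. Krt18 read 5.68, 3.94 and 3.58 in the MBELN arrays, against 13.77, 12.97 and 14.18 in the PBS arrays. It was above the dim level in 1 of 3 MBELN arrays. It fell by 9.24 (SE 0.66, 95% confidence interval -10.88 to -7.59, adjusted p = 0.0023). In bulk RNA, fewer epithelial cells and less keratin RNA per cell cannot be told apart. The MBELN arrays also carried heart or neuronal markers, as given above, and the part of tissue content in these falls was not tested.

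Krt19 encodes a short type I keratin of simple and ductal epithelia. It read 4.46, 2.34 and 5.59 in the MBELN arrays, against 17.73, 17.79 and 17.91 in the PBS arrays. The PBS values had an SD of 0.09, although PBS 2 differed from PBS 1 and PBS 3 in intestinal region markers. Krt19 fell by 13.68 (SE 0.84, 95% confidence interval -15.76 to -11.60, adjusted p = 0.00162), the smallest adjusted p among the 10 genes.

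Krt20 encodes the type I keratin of differentiated gut epithelium, on the villus and the colonic surface. It read 8.81, 3.97 and 7.30 in MBELN 1, 2 and 3, against 19.50, 17.57 and 19.25 in PBS 1, 2 and 3. PBS 2 was the lowest PBS array, at -1.81 relative to the mean of PBS 1 and PBS 3, a comparison of single arrays with no test. Krt20 fell by 12.08 (SE 1.33, 95% confidence interval -15.37 to -8.78, adjusted p = 0.00851), and the call ended without PBS 1 (adjusted p = 0.0558) or PBS 3 (0.0566).

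Krt7 encodes a type II keratin found mainly in ductal and glandular epithelia. It read 6.50, 2.597 and 4.86 in MBELN 1, 2 and 3, against 13.17, 10.31 and 13.71 in PBS 1, 2 and 3. PBS 2 was again the lowest of the PBS arrays, at -3.13 relative to the mean of the others. Krt7 fell by 7.74 (SE 1.32, 95% confidence interval -11.03 to -4.46, adjusted p = 0.0331), the smallest fall of the 5 keratins. This call ended without MBELN 1 (0.0626), MBELN 3 (0.123), PBS 1 (0.154) or PBS 3 (0.142).

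All 5 keratins thus fell in MBELN relative to PBS, and 0 of the other 5 filament genes passed the test in either direction. With limma and Benjamini-Hochberg adjustment over 22206 probe sets, 5.18% of all probe sets passed an adjusted p of 0.05, 3.76% lower and 1.42% higher in MBELN. The same 5 keratins were the members whose groups did not overlap, all of them lower in MBELN. Groups did not overlap for 25.3% of all probe sets, 13.4% lower and 11.9% higher in MBELN. At an unadjusted p of 0.05, 0 of the other 5 genes passed as well. The median difference was -12.08 over the 5 keratins and -4.69 over the 10 genes, against 0.09 over all probe sets. Without MBELN 2 and PBS 2, the 5 keratins differed by -12.80 to -7.76, with limma adjusted p between 4.39e-06 and 7.69e-05. In that fit 15.4% of all probe sets were lower and 15.1% higher. Here and in other fits without these arrays, the arrays were left out because their values stood apart. Spread within groups is smaller by that choice, so the adjusted p-values of such fits are no added support. The arrays left in MBELN carried heart markers, and those left in PBS small intestinal markers. Within the MBELN arrays, all keratins except Krt18 were lowest in MBELN 2. Krt18 was 3.94 there and 3.58 in MBELN 3, neither above the dim level.

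Gut epithelial markers moved with the keratins. Of 10 such genes, 5, 3 and 8 were above the dim level in MBELN 1, 2 and 3, against 10, 9 and 10 in PBS 1, 2 and 3. The summed signal of the list, as log2, was 7.39 to 10.55 in MBELN and 21.52 to 21.81 in PBS. Epcam, the epithelial cell adhesion molecule, read 7.12, 2.47 and 7.54 in MBELN, against 19.40, 18.97 and 19.41 in PBS. The part of epithelial content in the keratin falls was not tested.

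**Figure D2:**
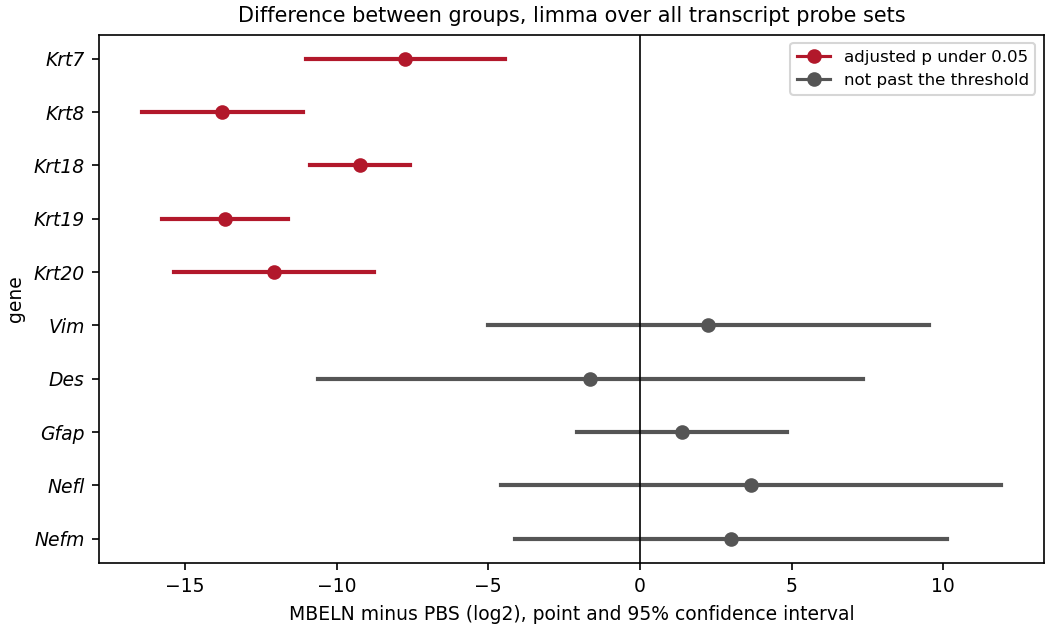
MBELN minus PBS difference of each filament gene on the log2 scale (points) with its 95% confidence interval (lines), from the fit over all probe sets with 3 arrays a group. The 5 keratins lie between -13.76 and -7.74 with intervals below 0, and the intervals of the other 5 genes span 0.

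Vim and Des encode the type III proteins of mesenchyme and muscle, and their promoter windows are shown because the 2 genes were highest on the same arrays. The Vim window is chr2:13574061-13574360 and the Des window is chr1:75360042-75360341, both on the plus strand of GRCm38.p6 from RefSeq, with the same capitals.
Vim promoter: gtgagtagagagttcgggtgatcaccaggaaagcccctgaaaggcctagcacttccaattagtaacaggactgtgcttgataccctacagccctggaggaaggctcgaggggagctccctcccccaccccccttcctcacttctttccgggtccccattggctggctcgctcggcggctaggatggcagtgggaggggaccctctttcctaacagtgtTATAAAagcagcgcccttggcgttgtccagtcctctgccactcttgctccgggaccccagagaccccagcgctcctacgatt
Des promoter: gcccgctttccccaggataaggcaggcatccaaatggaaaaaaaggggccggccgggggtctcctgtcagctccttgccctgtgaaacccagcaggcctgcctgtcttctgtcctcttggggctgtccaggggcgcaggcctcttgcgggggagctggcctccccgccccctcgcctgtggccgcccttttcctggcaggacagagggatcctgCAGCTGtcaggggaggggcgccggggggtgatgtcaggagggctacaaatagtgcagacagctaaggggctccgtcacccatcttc
Vim held TATAAA from position -32, and Des held CAGCTG from position -36. Among the other windows, Krt20 held TATAAA from position -29, and Krt7 and Gfap held neither.

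Vim read 15.78, 6.61 and 15.56 in MBELN 1, 2 and 3, against 8.77, 13.79 and 8.62 in PBS 1, 2 and 3. It was high in MBELN 1, MBELN 3 and PBS 2 and lower in the other 3 arrays, so the groups overlapped. The group means were 12.65 ± 5.23 in MBELN and 10.39 ± 2.94 in PBS (SD, n = 3 each). The difference was 2.26 (SE 2.92, 95% confidence interval -5.00 to 9.52, limma, adjusted p = 0.733). With MBELN 2 and PBS 2 both left out it was 6.97 (adjusted p = 1.15e-05), and without MBELN 2 alone 5.28 (adjusted p = 0.0944). PBS 2 was 5.09 above the mean of PBS 1 and PBS 3, and MBELN 2 was at -9.06 relative to the mean of MBELN 1 and MBELN 3.

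Fibroblast and endothelial markers differed across the same arrays. The median of 9 fibroblast genes was 9.09, 5.32 and 10.23 in MBELN 1, 2 and 3, against 6.96, 11.84 and 6.97 in PBS 1, 2 and 3. Col1a1 and Col1a2 encode chains of type I collagen. Col1a1 read 8.12, 4.92 and 9.23 in MBELN, against 5.92, 6.58 and 5.81 in PBS. Col1a2 read 9.09, 3.56 and 10.23 in MBELN, against 6.01, 9.15 and 6.02 in PBS. The summed signal of the fibroblast list, as log2, was 17.64 to 20.17 in MBELN and 15.11 to 20.23 in PBS. The median of 9 endothelial genes was 12.22, 4.99 and 11.03 in MBELN 1, 2 and 3, against 4.09, 5.84 and 3.87 in PBS 1, 2 and 3, with a summed signal of 8.60 to 15.31 in MBELN and 7.44 to 9.48 in PBS. Vim and the fibroblast median were each higher in MBELN 1, MBELN 3 and PBS 2 than in the other 3 arrays. Not all genes of the list followed, and Thy1, Pdgfrb and Fn1, which did not, are named after their values were seen. Thy1, a surface protein of fibroblasts and also of neurons, read 7.46, 17.64 and 7.09 in MBELN, against 6.76, 8.84 and 6.22 in PBS, and so made up the summed signal in MBELN 2. Pdgfrb, a growth factor receptor, read 8.33, 6.03 and 8.61 in MBELN, against 6.96, 6.02 and 6.57 in PBS. Fn1 read 8.03, 6.11 and 8.50 in MBELN, against 8.11, 11.95 and 7.42 in PBS. The part of either cell type in the Vim values was not tested.

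Des read 16.49, 3.61 and 16.38 in MBELN 1, 2 and 3, against 13.47, 14.58 and 13.32 in PBS 1, 2 and 3. Desmin RNA was thus bright in all 3 PBS arrays and brighter in MBELN 1 and MBELN 3, while MBELN 2 was not above the dim level. The group means were 12.16 ± 7.40 in MBELN and 13.79 ± 0.69 in PBS (SD, n = 3 each). The difference was -1.63 (SE 3.62, 95% confidence interval -10.61 to 7.35, limma, adjusted p = 0.852). It was 2.64 without MBELN 2 (adjusted p = 0.0161) and 3.04 without MBELN 2 and PBS 2 (adjusted p = 0.000388), so 1 array decided its sign.

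The muscle markers beside Des were of partly different kinds in the groups. The median of 9 smooth muscle genes other than Des was 7.62, 4.12 and 7.29 in MBELN 1, 2 and 3, against 14.69, 16.48 and 15.16 in PBS 1, 2 and 3, with a summed signal (log2) of 7.46 to 16.28 in MBELN and 19.25 to 21.29 in PBS. Acta2, smooth muscle actin, read 15.11, 5.45 and 16.21 in MBELN, against 18.11, 19.33 and 18.02 in PBS. Myh6, the heart myosin heavy chain, read 18.82, 3.68 and 19.03 in MBELN, against 3.66, 3.28 and 3.24 in PBS, where it was not above the dim level. The summed signal of the 10 heart muscle genes was 7.28 to 22.25 in MBELN and 8.55 to 11.26 in PBS. Of 10 skeletal muscle genes, 3, 2 and 2 were above the dim level in MBELN 1, 2 and 3, against 2, 1 and 2 in PBS. Their summed signal was 9.28 to 17.05 in MBELN and 7.37 to 7.73 in PBS. In MBELN 1 and MBELN 3 most of it came from Ckm, at 15.81 and 16.42, and Acta1, at 14.24 and 15.56. In MBELN 2 most came from Pvalb, at 8.89. Myh1, Myh2 and Myh4 were not above the dim level on any array. These skeletal muscle genes were named after their values were seen. Des was therefore bright beside heart markers in MBELN 1 and MBELN 3 and beside smooth muscle markers in PBS. In MBELN 1 and MBELN 3, 8 and 9 of the 9 smooth muscle genes were also above the dim level. Smtn read 9.63 and 10.44 there, against 9.60 to 10.82 in PBS, and Synpo2 9.35 and 9.25, against 9.28 to 11.73. The other genes of the list read lower there than in any PBS array. Smtn and Synpo2 were named after their values were seen. The part of either muscle in the Des values was not tested.

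**Figure D3:**
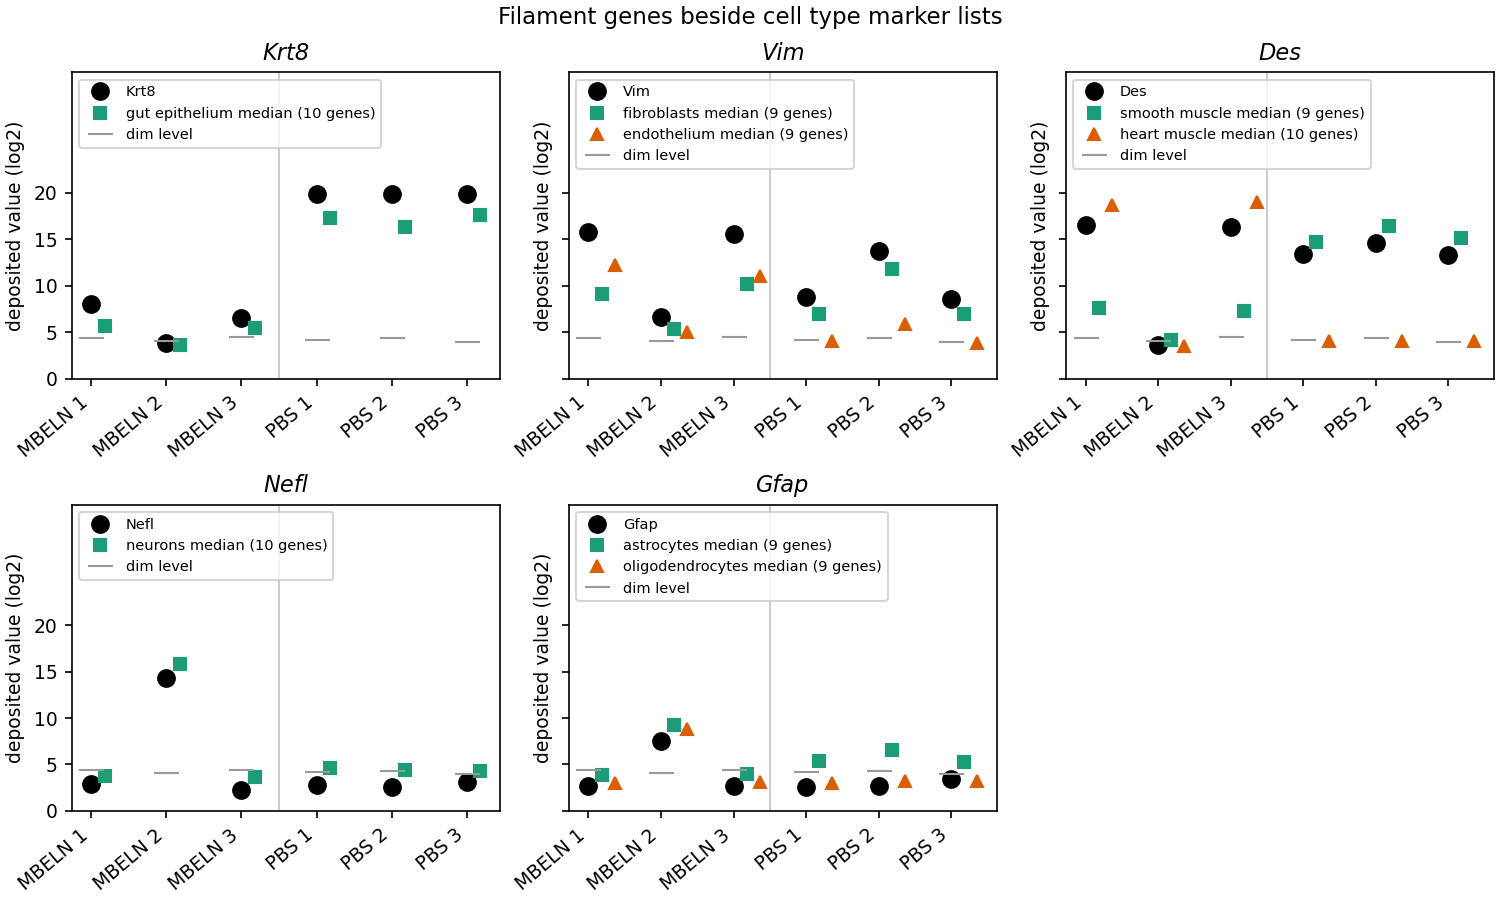
Log2 value of Krt8, Vim, Des, Nefl and Gfap (circles) in each of the 3 MBELN and 3 PBS arrays, with the median of marker lists in the same arrays (squares and triangles) and the dim level (dashes). Des is bright with the heart muscle median near 19 in MBELN 1 and MBELN 3 and with the smooth muscle median of 14.69 to 16.48 in PBS, and Nefl and the neuronal median are high in MBELN 2.

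Nefl and Nefm encode the light and medium neurofilament chains that co-assemble in axons, and they are neighbours on the chromosome with 0 protein-coding genes between them. Nefl read 2.92, 14.34 and 2.20 in MBELN 1, 2 and 3, against 2.79, 2.59 and 3.11 in PBS 1, 2 and 3. Nefm read 2.65, 12.87 and 2.69 in the MBELN arrays, against 3.27, 2.96 and 2.99 in the PBS arrays. Both were above the dim level in MBELN 2 and in none of the other 5 arrays. MBELN 2 exceeded the PBS mean by 11.51 for Nefl and by 9.80 for Nefm, values of 1 array with no test.

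The group comparison passed for neither gene. Nefl differed by 3.66 (SE 3.32, 95% confidence interval -4.59 to 11.90, limma, adjusted p = 0.622) and Nefm by 2.996 (SE 2.87, 95% confidence interval -4.13 to 10.12, adjusted p = 0.639). Without MBELN 2 the differences were -0.27 for Nefl and -0.40 for Nefm, so both rest on that array.

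Gfap, the filament of astrocytes and of enteric glia, read 2.69, 7.50 and 2.63 in MBELN 1, 2 and 3, against 2.53, 2.70 and 3.43 in PBS 1, 2 and 3. MBELN 2 was the single array above the dim level. The difference was 1.39 (SE 1.40, 95% confidence interval -2.08 to 4.85, limma, adjusted p = 0.652), and -0.23 without MBELN 2.

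The medians of the nerve tissue marker lists were highest in the same array, but not every listed gene followed. Syn1, a synaptic vesicle protein, read 2.70, 16.12 and 3.23 in MBELN 1, 2 and 3, against 2.95, 2.69 and 4.05 in PBS. The summed signal of the 10 neuronal genes (log2) was 10.12 to 21.75 in MBELN and 8.78 to 9.09 in PBS. The median of 9 astrocyte genes was 3.88, 9.21 and 3.93 in MBELN 1, 2 and 3, against 5.35, 6.55 and 5.31 in PBS. The summed signal of this list was 12.65 to 20.13 in MBELN and 9.91 to 10.46 in PBS. Its genes Gja1, Aldh1l1 and Sox9 did not follow. Gja1 read 12.60, 11.03 and 13.86 in MBELN. In MBELN 2, Aldh1l1 read 6.93 and Sox9 8.28, against 8.31 to 9.40 and 8.30 to 8.93 in PBS. The median of 9 oligodendrocyte genes was 3.02, 8.87 and 3.15 in MBELN, against 3.01, 3.21 and 3.20 in PBS, with a summed signal of 6.77 to 18.94 in MBELN and 7.02 to 7.36 in PBS. Of 7 enteric glia and Schwann cell genes other than Gfap, 3, 6 and 4 were above the dim level in MBELN 1, 2 and 3, against 3, 5 and 4 in PBS, with a summed signal of 9.94 to 16.52 in MBELN and 11.41 to 12.54 in PBS. In this last list Erbb3 read 4.27 in MBELN 2, against 11.16 to 12.51 in PBS, and Foxd3 was not above the dim level on any array. Most of its summed signal in MBELN 2 came from Ncam1, at 16.19. These genes that did not follow, and Ncam1, were named after their values were seen. Which cells gave the Gfap and neurofilament signal was not tested.

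The rest of the family was called at about the share of all probe sets. Of 35 other filament genes measured, 1 was lower, 0 were higher and 34 did not pass with limma, against 3.76% lower and 1.42% higher of all probe sets. At an unadjusted p of 0.05, 2 were lower and 1 was higher, where 10.6% of all probe sets were lower and 7.21% higher. Groups did not overlap for 7 of the 35, 4 lower and 3 higher, with 25.3% as the share over all probe sets. The median difference was -0.14, against 0.09 over all probe sets. Of these 35 genes, 21 were not above the dim level on any array, among them Krt5 and Krt14, the keratin pair of basal cells in stratified epithelia. Of the 24 other keratins, 19 were in that state and 0 passed.

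Ina and Nefh were bright on the same array as Nefl and Nefm, and Prph and Nes were not. Ina, which encodes internexin alpha of neurons, read 3.01, 14.45 and 2.93 in MBELN 1, 2 and 3, against 3.85, 3.09 and 3.07 in PBS (adjusted p = 0.631). Nefh, the heavy neurofilament chain, read 3.15, 8.16 and 3.20 in MBELN, against 2.85, 2.68 and 3.13 in PBS (adjusted p = 0.548). For both, MBELN 2 was the single array above the dim level. Prph, the filament of peripheral neurons, read 3.68, 3.38 and 4.62 in MBELN, against 4.68, 3.99 and 4.79 in PBS, above the dim level in 1 MBELN and 2 PBS arrays (adjusted p = 0.56). Nes, the filament of neural progenitors, passed the dim level in MBELN 3 alone, with 3.72, 2.95 and 4.70 in MBELN and 2.71 to 3.10 in PBS (adjusted p = 0.432).

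Synm was the single other filament gene past the threshold, and encodes synemin, which co-assembles with desmin and vimentin in muscle. It read 5.28, 5.08 and 4.67 in MBELN 1, 2 and 3, against 7.28, 7.28 and 8.93 in PBS 1, 2 and 3. The groups did not overlap, and it fell by 2.82 (SE 0.54, limma, adjusted p = 0.0465). The count of 1 was 0 without MBELN 1, MBELN 3, PBS 1 or PBS 3, so this call rests on each of those arrays. Synm was low in MBELN 1 and MBELN 3, where Des was highest. Sync, which encodes syncoilin of striated muscle, read 7.12, 3.91 and 7.58 in MBELN, against 3.19, 3.80 and 3.86 in PBS, above the dim level in MBELN 1 and MBELN 3 (adjusted p = 0.268). Without MBELN 2 and PBS 2, Sync differed by 3.82 (adjusted p = 0.000324) and Nes by 1.41 (adjusted p = 0.0404).

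The nuclear lamins, filaments of the nuclear envelope, did not pass. Lmna was above the dim level on all 6 arrays and read 7.84, 5.33 and 8.68 in MBELN 1, 2 and 3, against 8.94, 10.11 and 8.46 in PBS (adjusted p = 0.391). Lmnb1, a B-type lamin, read 4.33, 4.12 and 3.28 in MBELN, against 5.51, 3.87 and 5.98 in PBS (adjusted p = 0.408). Lmnb2, the other B-type lamin, read 3.32 to 4.32 in MBELN and 3.83 to 4.42 in PBS (adjusted p = 0.583). Of the other keratins, Krt23, a keratin of glandular epithelia, had the smallest p and read 3.56, 2.67 and 3.93 in MBELN, against 5.73, 4.27 and 4.98 in PBS (adjusted p = 0.189). Next came Krt84, a hair keratin, and Krt80, with adjusted p of 0.318 and 0.333. Without MBELN 2 and PBS 2, the differences were -1.94 for Lmnb1 (adjusted p = 0.0149) and -1.61 for Krt23 (0.0184). They were -1.71 for Krt84 (0.00715) and 1.38 for Krt80 (0.029), and those of Lmna and Lmnb2 did not pass (0.507 and 0.0618). Krt80 read 4.31 and 4.02 in MBELN 1 and 3, against 2.45 and 3.12 in PBS 1 and 3, all under the dim level. Lmnb1, Krt23 and Krt84 were also under it in MBELN 1 and MBELN 3. In that fit 15.4% of all probe sets were lower and 15.1% higher.

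**Figure D4:**
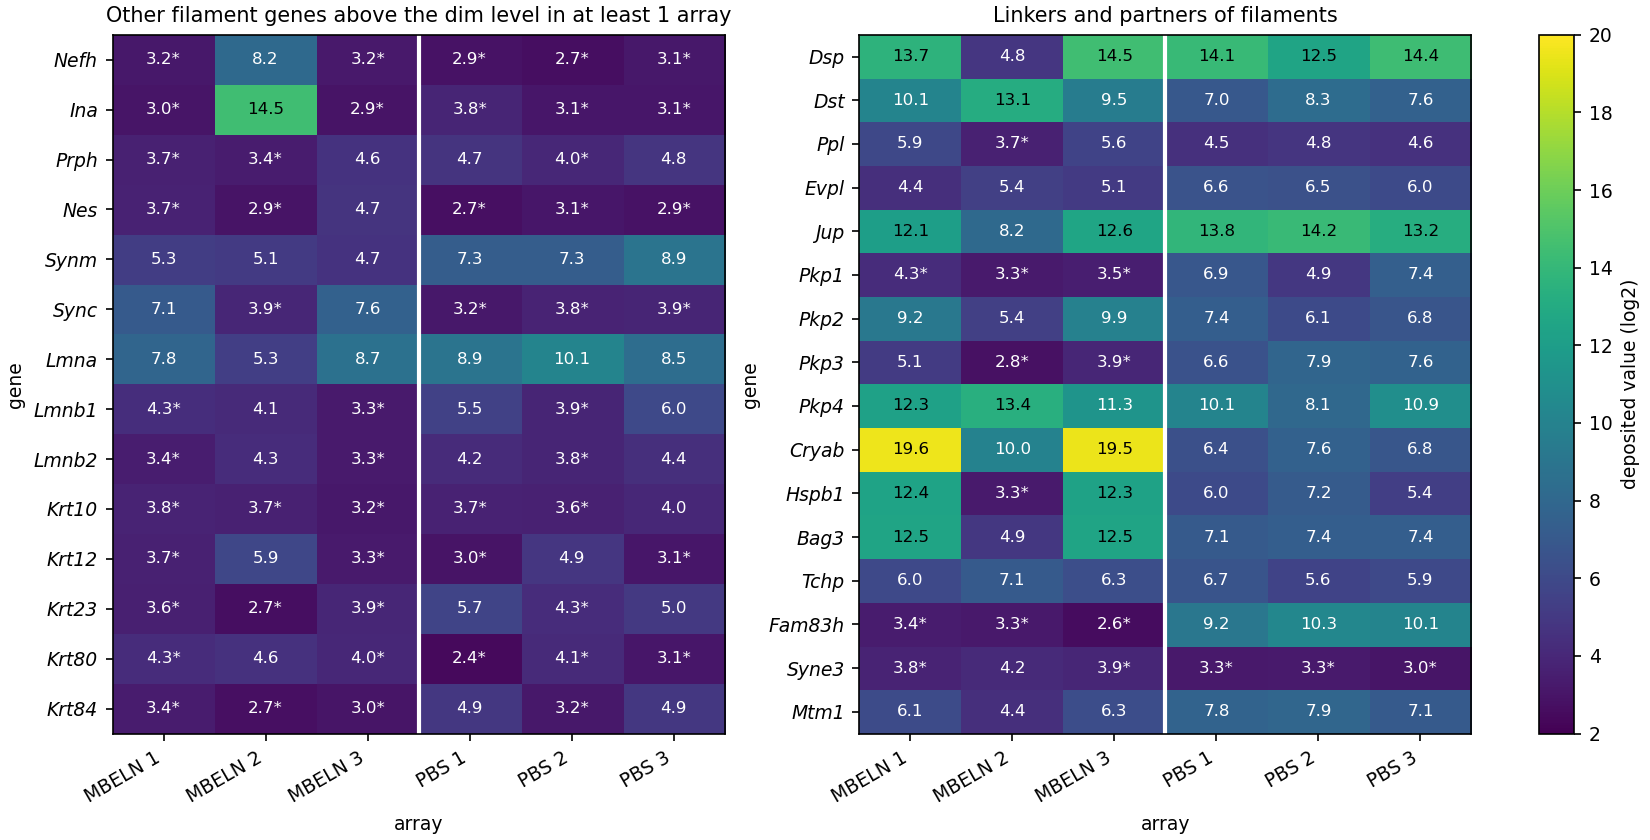
Log2 values of the 14 other filament genes above the dim level in at least 1 array (left) and of 16 linkers and partners of filaments (right), in the 3 MBELN and 3 PBS arrays, with an asterisk where a value was not above the dim level. Ina and Nefh are bright in MBELN 2 alone, Cryab, Hspb1 and Bag3 are brightest in MBELN 1 and MBELN 3, and Fam83h in the PBS arrays alone.

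Proteins that anchor or fold filaments were measured through 16 of 20 listed genes. With limma, 1 was lower, 0 were higher and 15 did not pass, and at an unadjusted p of 0.05 there were 5 lower and 4 higher, where 10.6% of all probe sets were lower and 7.21% higher. The 3 MBELN values lay below all PBS values for 6 of them and above for 4, with 13.4% and 11.9% as the shares over all probe sets. The median difference was 0.40, against 0.09 over all probe sets. Without MBELN 2 and PBS 2 the counts were 6 lower and 6 higher, where 15.4% of all probe sets were lower and 15.1% higher. Without MBELN 2 alone they were 3 and 6, where 7.32% were lower and 9.51% higher.

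Fam83h, which recruits a kinase to keratin filaments, was the gene that fell. It read 3.35, 3.26 and 2.63 in MBELN 1, 2 and 3, against 9.16, 10.34 and 10.13 in PBS 1, 2 and 3, at least 47.4-fold lower (limma, adjusted p = 0.00173). Dsp, the desmoplakin that ties keratin or desmin to desmosomes, read 13.67, 4.82 and 14.45 in MBELN, against 14.14, 12.54 and 14.39 in PBS (adjusted p = 0.644). Dsp was thus bright in 5 arrays, with heart markers or gut markers, and low in MBELN 2. Cryab, the small heat shock protein that chaperones desmin, read 19.57, 9.98 and 19.46 in MBELN, against 6.41, 7.62 and 6.79 in PBS. Every MBELN value of Cryab lay above PBS, but the difference of 9.40 (SE 2.70) did not pass (adjusted p = 0.141). Without MBELN 2 and PBS 2 it was 12.92 (SE 0.33, adjusted p = 2.09e-06). Dsp and Cryab were named after their values were seen.

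The genes whose profile over the 6 arrays was nearest to each filament gene were found among 6721 genes that spanned at least 3 log2 units. Nearness is the root mean square difference of the 6 values after each gene was centred on its mean, and it is a description with no test, in arrays that fall into clusters. For Krt8 these were Pigr, Tff3 and Lypd8 (0.346 to 0.415), and for Krt18 they were Eps8l2, Ifi27l2b and Slc39a4 (0.455 to 0.617). For Krt19 they were Actg2, Cdh1 and Epcam (0.537 to 0.771), of which Actg2 encodes an actin of visceral smooth muscle. Krt20 was nearest to Muc2, Cdhr5 and Fcgbp (0.471 to 0.607), and Krt7 to Prr15, Stap2 and Mall (0.486 to 0.673).

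The nearest to Vim were Ifi207, Mmp2 and Rhoj (0.451 to 0.548). Des had no close match, with Lyz2, Dcn and Ogn at 1.10 to 1.20, the largest distances to a first match of the 10 genes. For Nefl the nearest were Cplx1, Dnajc6 and Stmn3 (0.167 to 0.304), for Nefm they were Ddn, Erc2 and Cntnap1 (0.152 to 0.219), and for Gfap they were Dpf1, Shisa7 and Chrm4 (0.0971 to 0.188). Among the 10 genes themselves, the nearest pairs were Nefl with Nefm (0.687) and Krt8 with Krt19 (0.825). Krt8 was 2.47 from Krt18, its assembly partner, whose values spanned 10.60 log2 units where those of Krt8 spanned 16.07. Vim and Des were 2.66 apart.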

How the data were processed

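Groups of the 6 arrays were taken from the sample titles. The values the authors deposited, 1 for each probe set on each array, were taken as log2 values, a scale that is inferred: the lowest was above 0 and the highest, 19.9315, is log2 of 1000000. Per the submitters' processing notes, Transcriptome Analysis Console 4.0 was used. The summarization, background correction, normalization and genome build were not given in the sources used here. Per the labels' protocols, biotinylated cRNA came from 90 ng of RNA by an Affymetrix procedure, and the same protocol also names Ion AmpliSeq.

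Of 28846 probe sets, 6640 array controls stayed out of the tests. Of the other 22206, 19572 had 1 symbol in the platform annotation, 0 several and 2634 none. MBELN was compared with PBS by lmFit and eBayes (limma 3.58.1, R 4.3.3, statmod 1.5.0) on the deposited values, two-sided, without covariates or filter, with Benjamini-Hochberg adjustment over the 22206 calling an adjusted p under 0.05. Residual degrees of freedom were 4 and prior ones 1.66, and the procedure was tested on simulated data. That simulation had independent noise, no clusters of arrays, and changes only in probe sets of small spread. It does not cover the members, whose pooled SD was 0.90 to 5.26. The members, the gene lists and the rule for named genes were chosen with earlier results of these data known. The rule named the members, other non-keratin filaments above the dim level, up to 6 called (else the 3 smallest p) keratins and linkers, the first markers of a list and 3 nearest profiles. Marker lists leave out the members. The median difference over all probe sets was 0.09, and 0.04 after median centring. Hybridisation control means were 9.79 to 10.09 in MBELN 1, MBELN 3 and PBS 2 and 8.43 to 8.98 in MBELN 2, PBS 1 and PBS 3, and this level was tried as a block. Figures were drawn with matplotlib 3.10.9.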

Additional observations from a re-analysis of the deposited data

How the results depend on the processing

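Directions and calls of Krt8, Krt18 and Krt19 were the same in all 17 alternatives run for each. Among these, the choice of probe set could not change them, since each member had 1 probe set. The fits within a hybridisation control level left 1 array in a group. The count of members lower in MBELN was 5, and ranged from 3 to 5 with 1 array left out, without Krt7 in 4 cases and Krt20 in 2. The number of members higher was 0, and 0 to 1 with 1 array left out, 1 with array weights, and 2 without MBELN 2 and PBS 2. Of all 22206 probe sets, 325 to 1626 were lower and 51 to 2112 higher with 1 array left out. Array weights called 2887 lower and 2870 higher, and leaving out MBELN 2 and PBS 2 called 15.4% lower and 15.1% higher. With a block for the hybridisation control level, Krt7 differed by -7.74 (adjusted p = 0.0596). Within the arrays of higher level, MBELN 1 and 3 against PBS 2, the keratins differed by -12.77 to -4.63. Within those of lower level, MBELN 2 against PBS 1 and 3, they differed by -16.07 to -10.03. In both, the spread of a single array is taken from the remaining arrays. Counts given below for these fits, of all probe sets and of linkers, therefore only record the setting. They are not support for any result. Within each group this level separates the same arrays as the tissue markers, so they cannot be told apart.

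Signs turned as follows. Vim was -0.10 with the level as a block and -2.08 within the lower level. Des was 2.34 with array weights, 3.04 without MBELN 2 and PBS 2 and 1.86 within the higher level, and ranged from -3.80 to 2.64 with 1 array left out. Gfap was -0.32 without MBELN 2 and PBS 2 and -0.0447 within the higher level, with a range of -0.23 to 2.20, Nefl -0.39 and -0.0346 with a range of -0.27 to 5.80, and Nefm -0.46 and -0.29 with a range of -0.40 to 4.71. Nefm was -0.0256 with array weights. The cause was not tested.

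The 1150 probe sets past the threshold became 5757 with array weights, 456 with the replicate block, 6769 without MBELN 2 and PBS 2, 4174 and 7234 within the higher and lower level, 407 at an adjusted p of 0.01, 1772 at 0.1, and 377 to 3738 with 1 array left out. The replicate block left 5 members lower and 0 higher. Deviations of same-numbered arrays correlated at -0.0315, -0.0718 and -0.0557 across probe sets, and those of differently numbered arrays at -0.091 to 0.0788. Arrays of a group differ in tissue markers, which would hide a pairing, so these values cannot decide whether the numbers pair the arrays. Other filament genes lower, 1, became 0 with a trended robust variance, the replicate block, the level as a block or a threshold of 0.01. They became 3 with array weights, 4 without MBELN 2 and PBS 2, and 0 to 1 with 1 array left out. Those higher, 0, became 2 with array weights, 3 without MBELN 2 and PBS 2, and 0 to 1 with 1 array left out. Linkers lower, 1, became 2 with the dim filter or a threshold of 0.1, 5 with array weights, 6 without MBELN 2 and PBS 2, 3 with the level as a block, 4 and 9 within the levels, and 1 to 3. Linkers higher, 0, became 6 with array weights or without MBELN 2 and PBS 2. They became 1 with the level as a block, and 0 to 6 with 1 array left out. Of all 22206 probe sets, 315 were called higher and 835 lower. These became 2870 and 2887 with array weights, and 3354 and 3415 (15.1% and 15.4%) without MBELN 2 and PBS 2. With the level as a block they were 381 and 994, and with the dim filter 374 and 964 of 12083. With 1 array left out, 51 to 2112 were higher and 325 to 1626 lower. The dim filter kept 7 of the 10 genes, since Gfap, Nefl and Nefm passed the level on 1 array each. Each member had 1 probe set, so the choice of probe set had no effect on it. With the 99th percentile as the dim level, MBELN 1 had 6 and MBELN 3 had 5 members above it. Values near 19.93 limit what Krt8 can show, and values under the dim level limit Gfap, Nefl and Nefm.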

Other observations

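Markers of cell types that the crypt preparation could also hold were examined beside the filament genes. Of 9 stratified squamous epithelium genes, 1, 0 and 1 were above the dim level in MBELN 1, 2 and 3, against 2, 2 and 1 in PBS 1, 2 and 3, and the list's median was 2.88 to 3.34 in MBELN and 2.88 to 3.17 in PBS. The summed signal of that list (log2) was 6.05 to 13.45 in MBELN and 14.36 to 16.01 in PBS. In the 5 arrays other than MBELN 2 most of it came from Perp, a desmosomal membrane protein that read 13.21, 2.91 and 13.44 in MBELN, against 14.40, 16.01 and 14.36 in PBS and was named after its values were seen. Of 7 duct or urothelium genes other than Krt7, 2, 1 and 2 were above the level in MBELN, against 2, 3 and 2 in PBS, with medians of 3.11 to 3.60 in MBELN and 3.23 to 4.10 in PBS. The uroplakin genes Upk1a and Upk1b read 3.11 to 3.62 and 3.71 to 7.80 in MBELN, against 2.93 to 4.10 and 4.43 to 7.24 in PBS. The median of 8 immune cell genes was 7.37, 4.97 and 7.56 in MBELN 1, 2 and 3, against 7.75, 7.71 and 5.90 in PBS.

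Krt8 read exactly 0.0448 below the highest value of each PBS array, at 19.89, 19.87 and 19.89. The highest value itself was shared by 25 to 54 probe sets in the MBELN arrays and by 16 to 46 in the PBS arrays.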
